A study of Equus caballus with 32 samples.

Results

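The 150 genes described here are those with the largest median increase in RNA level over 10 weeks in the synovium of horses, which is the inner membrane of a joint. For each gene a level was taken as log2(CPM + 0.5), where CPM is the gene's count divided by the total count of its library and multiplied by 1000000. Of 19418 genes in the deposited table, 11135 had a mean level of 2 or more over the 32 libraries and were not among the 100 genes with the highest mean CPM. Within each of 16 horses the week 0 level was subtracted from the week 10 level, and the 150 genes with the largest median of these 16 changes were taken. The genes were thus chosen by their measured change over time, and its values are given below as a description without a test. The median changes ran from 1.40 to 2.93. Ranks 146 to 150 had values of 1.41 to 1.40 and ranks 151 to 155 values of 1.40 to 1.39, so the limit falls within a continuous range.

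The study gave a control arm of 8 horses and an iPAAG arm of 8 horses, to which horses were randomized. iPAAG is an injectable 2.5% polyacrylamide hydrogel placed inside the joint, and the design text calls the study placebo-controlled without naming the placebo. In every horse of both arms, osteoarthritis was induced by creating a bone and cartilage fragment in 1 middle carpal joint, and the opposite joint had arthroscopy as a sham operation. Biopsies of week 0 were arthroscopic and preceded the fragment, and those of week 10 followed directly after death. Within an arm, time, disease, treatment and the way of collection thus changed together and cannot be told apart. The tissue was digested with collagenase and dead cells were spun out before lysis, so the polyadenylated RNA measured here is that of the released cells. The labels name neither the joint that gave a biopsy nor the day of treatment, and the sources used here give no age, sex or breed.

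Synovium has a thin lining of fibroblast-like and macrophage-like cells over a looser layer with vessels, fibroblasts, fat, nerves and immune cells. The lining makes hyaluronan and lubricin for the joint fluid, and after joint injury the membrane commonly becomes inflamed and thickens with fibrous tissue. Polyacrylamide hydrogel is known to become incorporated into this membrane. The deposited table gives Ensembl horse gene identifiers alone. The reference table used for names holds 39335 genes and 0 of these identifiers, so 0 of the 150 genes could be given a symbol, a position or a function, and the label of the tissue could not be checked against marker genes. Of the 150 genes, 2 are printed by identifier and the others are called by their rank in the median change. In bulk tissue, fewer cells of a type and less RNA per cell cannot be told apart.

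Total counts per library ranged from 5428928 to 56476566. Control horses 2 and 11 differed from the rest in their week 10 library, with 12018 and 11373 genes detected against 15599 to 17410 in the other 30, and their total counts were 5428928 and 28614860. The horse codes were checked on the 25 genes of the table with the widest gap between libraries of high and low level, which included 0 of the 150. In 6 of these genes each of the 16 horses lay on the same side of the gap at both weeks, and in 11 at least 15 horses did. In the other genes of the 25 fewer horses did, down to 9 of 16.

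The 150 genes together held a small share of the RNA, and that share was larger at week 10 in every horse. In control horses their summed level had a mean of 5561 ± 1912 CPM before the model and 17557 ± 6781 CPM at its end (SD, n = 8). The corresponding iPAAG means were 5017 ± 1813 and 14201 ± 2866 CPM (SD, n = 8). These means correspond to 0.556% and 1.76% of all counts in the control arm and 0.502% and 1.42% in the iPAAG arm. The ratio of week 10 to week 0 was lowest in control horse 9, at 1.49, and highest in control horse 15, at 6.65. Each arm had week 10 libraries wholly above its own week 0 libraries, at 11585 to 29637 against 2961 to 8059 CPM in control horses and 9991 to 18981 against 3069 to 8287 CPM in iPAAG horses. At week 10 the arms overlapped. Without control horses 2 and 11 the control means were 5137 ± 1911 and 15984 ± 5552 CPM (SD, n = 6).

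**Figure D1:**
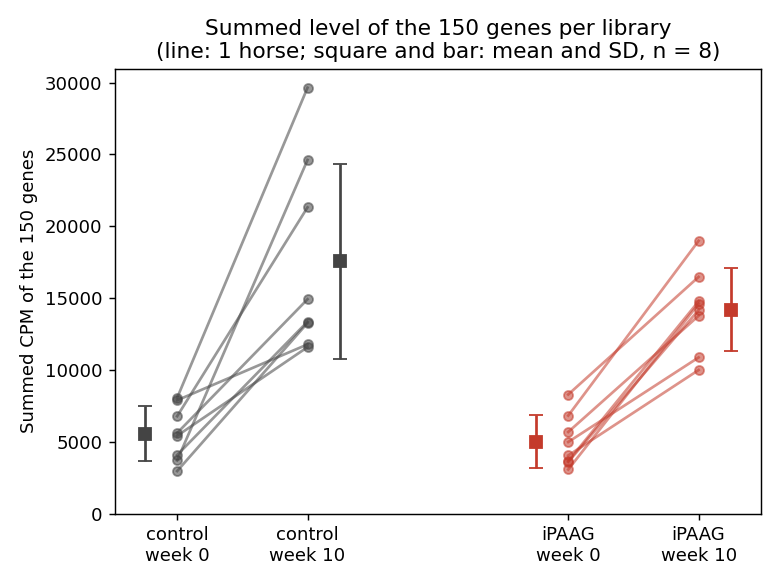
Summed CPM of the 150 genes in each library (y axis) by arm and week (x axis), where a line joins the libraries of 1 horse and squares with bars give the mean and SD over 8 horses. Every line goes up, and the week 10 libraries of the arms overlap.

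Most of the genes were of modest level. Their median CPM over the 16 week 0 libraries ran from 0.958 to 364, with a median of 10.5, below the median of 28.9 over the 11135 genes kept. At week 10 the range was 5.06 to 943 and the median 31.8, against 30.1 for the genes kept. Of the 150, 37 had a mean of at least 100 CPM at week 10. The highest by mean at week 10 were rank 65, with medians there of 943 CPM in control and 856 CPM in iPAAG horses, rank 10, with 358 and 478 CPM, and rank 150, with 927 and 524 CPM. In 2 genes a week 0 library had no count, beside 0.0808% of the genes kept. At week 10, 18 of the 150 genes had no count in the library of horse 2 and 14 in that of horse 11. Together, 27 of the 150 had a week 10 library at zero, beside 14.5% of the genes kept. In the other 14 week 10 libraries 0 of the 150 were at zero, beside 0.0898%.

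The genes were not equally steady. By its construction a positive median asks for a higher level in at least 8 horses. The genes were higher at week 10 in 10 to 16 horses, with 29 of 150 higher in all 16 horses and 67 in at least 15. Among the 11135 genes kept these shares were 0.925% and 3.35%. Without control horses 2 and 11, 54 of 150 were higher in all 14 horses, beside 2.43%. By arm, 62 of 150 were higher in 8 of 8 control horses, beside 3.87%, and 72 in 8 of 8 iPAAG horses, beside 5.58%. In the quasi-likelihood test of edgeR over the mean of both arms, 124 of 150 passed an adjusted p of 0.05 in the upward direction, beside 8.38% of 15498 genes tested, and 0 in the other, beside 10.2%. In the control arm 91 of 150 passed upward, beside 4.76% of all genes, and in the iPAAG arm 67, beside 2.03%. This contrast is the one that chose the genes, so these counts describe them only.

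Per horse, the median change of the 150 genes was lowest in control horse 11, at 0.75, and in iPAAG horse 17, at 0.79. It was highest in control horse 15, at 2.37, and in iPAAG horse 5, at 2.15. The same medians over the 11135 genes kept ran from -0.60 in horse 11 to 0.16 in horse 16. In iPAAG horses 5 and 14, 149 of 150 genes were higher at week 10, whereas in control horse 11 95 were. Horses 2, 6 and 17 each had 112 higher, and horse 3 had 115. Decreases of at least 2-fold on this scale were seen for 28 of the 150 in horse 11, 25 in horse 2, 15 in iPAAG horse 6 and 13 in control horse 9, and for 0 in horses 1, 5, 13 and 14.

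ENSECAG00000007941, rank 121, was the gene whose smallest change in any horse was largest, so it had the most even increase by that measure alone. It stood at 9.01 to 42.6 CPM (median 19.6) in control horses at week 0 and at 24.3 to 120 CPM (median 69.0) at week 10. In iPAAG horses it stood at 6.60 to 30.6 CPM (median 14.3) at week 0 and at 23.8 to 78.5 CPM (median 49.0) at week 10. The level was higher at week 10 in 16 of 16 horses, by 0.67 in iPAAG horse 17 to 2.98 in control horse 15 on the log2 scale. Horses differed in their starting level, so the weeks overlapped within each arm although no horse went down. Its level in control horse 2, whose week 10 library was shallow, went from 42.6 to 79.9 CPM, and in control horse 11 from 30.7 to 98.6 CPM. The edgeR change was 1.76 (SE 0.24) in control horses and 1.70 (SE 0.24) in iPAAG horses. The difference of these changes was -0.05 (SE 0.33, edgeR adjusted p = 0.990, 95% interval -0.74 to 0.63).

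ENSECAG00000014484, rank 1, had the largest median change and was far less even. It stood at 0.353 to 10.9 CPM (median 1.16) at week 0 and 1.11 to 23.2 CPM (median 4.71) at week 10 in control horses. In iPAAG horses it stood at 0.0311 to 4.93 CPM (median 2.23) at week 0 and 4.23 to 51.5 CPM (median 24.7) at week 10. All 8 iPAAG horses were higher at week 10, by 2.53 to 5.71 on the log2 scale. Control horses divided, with 3 horses (9, 10 and 16) at 3.58 to 4.39, 3 horses (1, 13 and 15) at 0.76 to 0.92, and horses 2 and 11 lower at week 10. Its edgeR difference of changes, iPAAG minus control, was 2.26 (SE 1.14, adjusted p = 0.982, 95% interval -0.12 to 4.65), and 1.09 without control horses 2 and 11. The arms at week 10 differed by 1.56 (SE 0.56, adjusted p = 0.358).

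**Figure D2:**
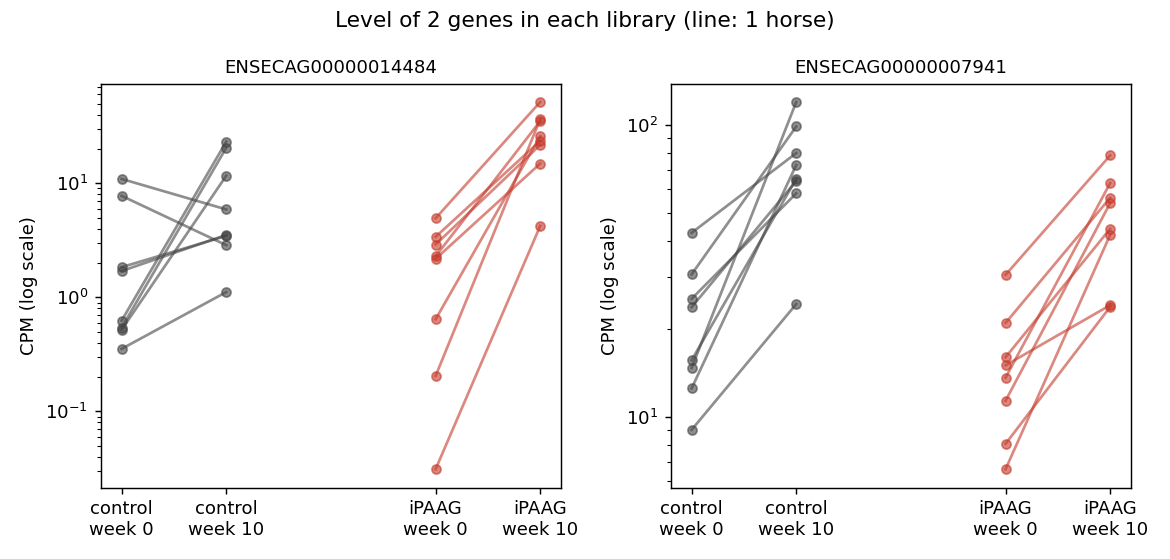
CPM on a log axis of ENSECAG00000014484 (left) and ENSECAG00000007941 (right) in each library by arm and week, where a line joins the libraries of 1 horse. All 16 lines of ENSECAG00000007941 go up, while 2 control lines of ENSECAG00000014484 go down.

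Some other genes were also even. Ranks 72 and 89 were the 2 genes of the 150 in which each of the 16 week 10 libraries exceeded each of the 16 week 0 libraries, as 0.0449% of the genes kept did. Rank 72 lay at 8.02 to 30.9 CPM over the week 0 libraries and at 34.7 to 92.4 CPM over the week 10 libraries. Rank 89 lay at 15.0 to 52.0 CPM and at 54.5 to 191 CPM. Within the control arm alone, 27 of the 150 did not overlap between weeks, beside 0.692% of the genes kept, and within the iPAAG arm 20 did not, beside 0.952%. Rank 75 had the smallest spread of changes between horses, with an SD of 0.50 over 16 horses around a median of 1.63. The SD of the changes had a median of 1.26 over the 150, against 0.63 over the genes kept.

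The 150 genes did not rise in the same horses. They were put into 4 sets by average linkage on 1 minus Pearson's r of their 16 changes, a grouping made after the values were seen and without regard to arm. Set 1 held 75 genes, set 2 held 53, set 3 held 12 and set 4 held 10. The median r between changes of genes of the same set was 0.59 in set 1, 0.58 in set 2, 0.45 in set 3 and 0.91 in set 4. Between sets 1 and 2 it was -0.20. These r values are over 16 horses, and the genes of a horse share 2 libraries. When the same grouping was made without control horses 2 and 11, 69 of the 75 genes of set 1 stayed in one set, 46 of the 53 of set 2 in another, and all 10 of set 4 in one more. Set 3 did not hold together, with its 12 genes spread over 3 of the new sets.

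**Figure D3:**
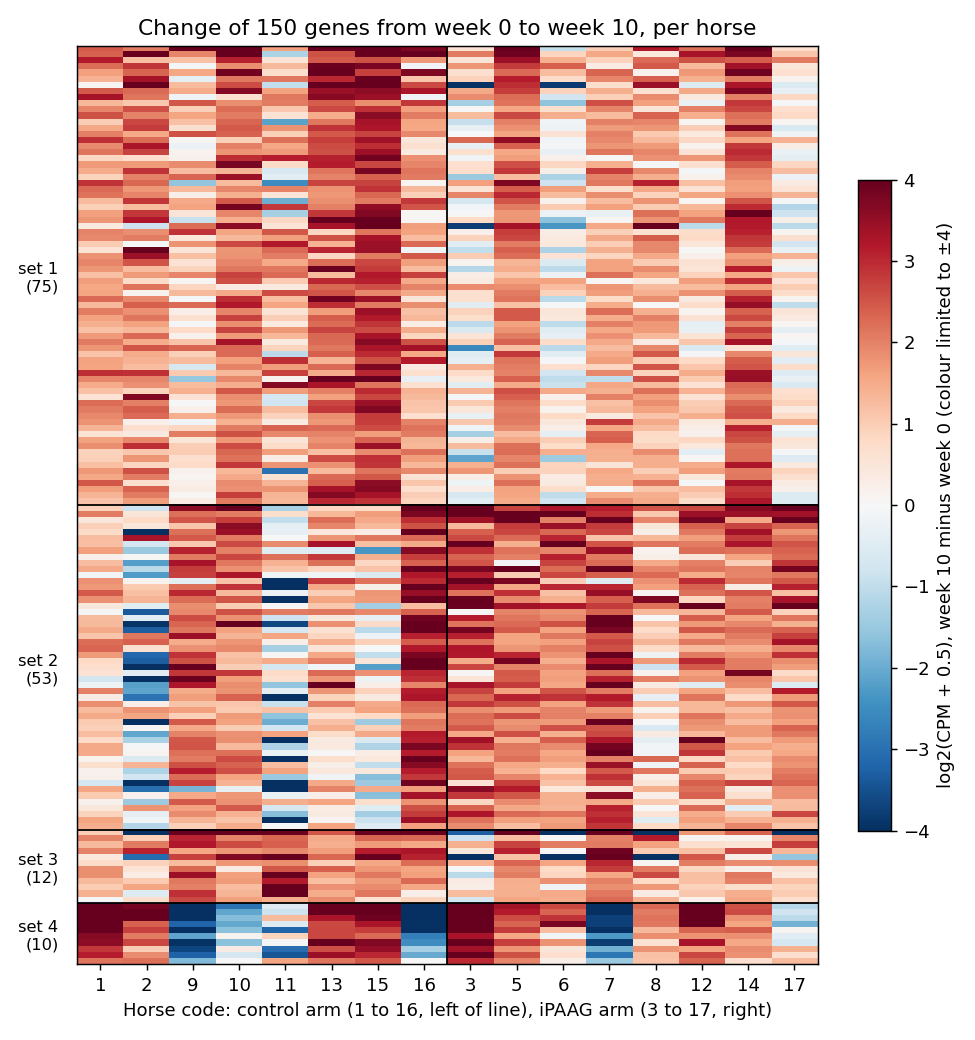
Change in log2(CPM + 0.5) from week 0 to week 10 (colour) of each of the 150 genes (rows, by set and rank) in each of the 16 horses (columns, control left and iPAAG right of the line), with the colour limited to changes of -4 to 4. Set 1 is pale in iPAAG horses 3, 6 and 17, set 2 is partly blue in control horses 2 and 11, and set 4 is blue in horses 7, 9 and 16.

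Set 1, the largest, contained most of the genes that were higher in every horse, 21 of the 29. Its median change was 3.03 in control horse 15, 2.52 in iPAAG horse 14 and 2.41 in control horse 13. It was 0.22 in iPAAG horse 6, 0.24 in iPAAG horse 17 and 0.31 in iPAAG horse 3, where 42, 46 and 46 of its 75 genes were higher at week 10. In control horse 2, 73 of 75 were higher, and in control horse 11, 63 were. The median over its genes of the median change was 1.92 in control horses and 1.09 in iPAAG horses. Summed over the 75 genes, control horses had 2678 ± 1261 CPM at week 0 against 9833 ± 4238 CPM at week 10 (SD, n = 8). The sums for iPAAG horses were 2519 ± 1683 against 4862 ± 1872 CPM (SD, n = 8).

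Set 2 was high in other horses than set 1 in part, while horse 5 was high in both. Its median change was 3.13 in control horse 16, 2.89 in iPAAG horse 7 and 2.53 in iPAAG horse 3, and all 53 genes were higher at week 10 in horses 3, 6 and 16. In control horses 15, 11 and 2 it was 0.42, -0.38 and -0.57, against 3.03, 1.30 and 2.03 in set 1. Of its 53 genes, 16 had no count in the week 10 library of horse 2 and 10 had none in that of horse 11, compared with 0 and 2 of the 75 genes of set 1. The low values of set 2 in these horses thus came in the libraries with few detected genes, and the part of those libraries in them was not tested. The median of its median changes was 1.21 in control horses and 2.06 in iPAAG horses. The summed level of its genes was 1014 ± 391 CPM at week 0 against 2295 ± 1197 CPM at week 10 for control horses (SD, n = 8). The sums for iPAAG horses were 1212 ± 498 against 5582 ± 2461 CPM (SD, n = 8).

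Set 4 was small, tightly linked and not steady at all. Its 10 genes, among them ranks 3, 5, 8 and 10, had a median change of 4.94 in iPAAG horse 3 and 3.93 in control horse 1. All 10 were lower at week 10 in control horses 9 and 16 and iPAAG horse 7, with medians of -3.82, -3.35 and -3.74. A gene of the set was higher at week 10 in a median of 11 horses, and 0 of the 10 were higher in all 16. Summed over the set, week 0 libraries ranged from 33.0 CPM in iPAAG horse 12 to 3462 CPM in control horse 9. Week 10 libraries ranged from 86.3 CPM in iPAAG horse 7 to 9996 CPM in control horse 2. The same genes were therefore high together in some libraries of either week, and the median r of their levels within the set was 0.86 at week 0 and 0.90 at week 10. In the edgeR test over the mean of both arms, 1 of the 10 passed an adjusted p of 0.05 upward, beside 8.38% of all genes. In set 1, 71 of 75 did, in set 2, 42 of 53 and in set 3, 10 of 12. This contrast chose the genes and the same changes made the sets, so these counts are description only.

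Set 3 held 12 genes with a median change of 2.83 in control horse 11 and 2.68 in control horse 9, and of 0.10 in iPAAG horse 3. It included the most uneven genes of all. Rank 7 changed by -5.61 to 11.74 between horses on the log2 scale (SD 5.11) and rank 54 by -4.52 to 9.24 (SD 3.99). In both, 7 of 8 control horses and 4 of 8 iPAAG horses were higher at week 10.

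**Figure D4:**
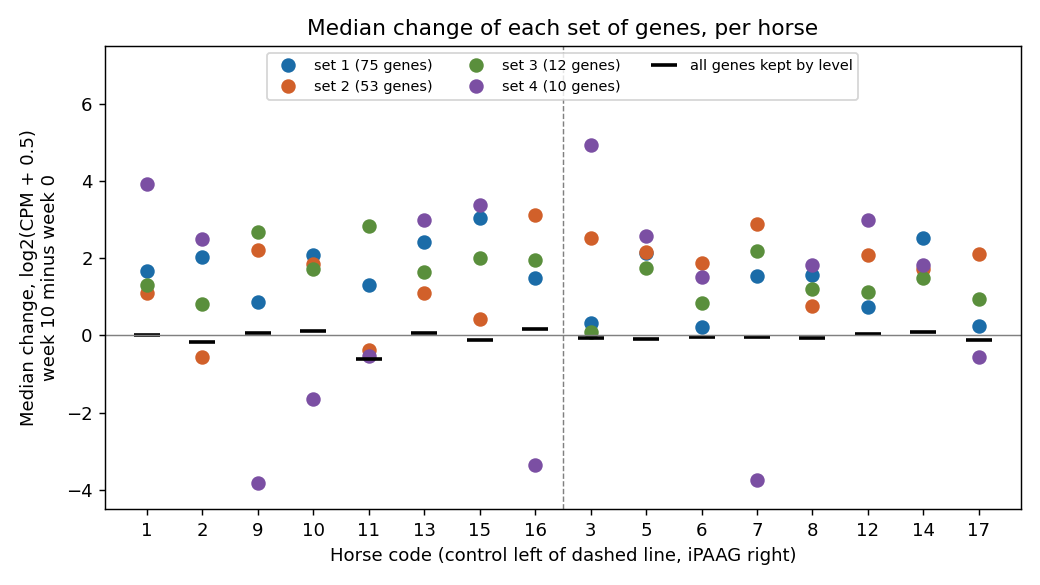
Median change of each set in each horse (coloured points, y axis in log2 units) with the median of all 11135 genes kept (black bars), control horses left and iPAAG horses right of the dashed line. Set 2 lies below 0 in horses 2 and 11, and set 4 lies below -3 in horses 7, 9 and 16.

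The arm labels did not enter the choice of genes, since all 16 horses entered the median alike. A gene could still enter mainly through 1 arm. Rank 21 had a median change of -0.14 in control and 2.19 in iPAAG horses, and rank 7 had 4.27 and -0.78. The choice was thus not independent of a difference between arms. The shares of all genes here and at week 10 are therefore not a matched background. In edgeR, 0 of the 150 genes had a difference of changes between iPAAG and control horses that passed an adjusted p of 0.05, beside 0% of 15498 genes tested, with a lowest adjusted p of 0.496 among the 150. Before adjustment, 20 of 150 (13.3%) had a p under 0.05, beside 3.98% of all genes. The change was larger in iPAAG horses in 10 of them, beside 2.61% of all genes, and larger in control horses in 10, beside 1.37%. DESeq2 called 1 of the 150, beside 0.0516% of all genes, with 44 at an unadjusted p under 0.05, beside 8.39%. The counts with limma-voom were 0, beside 0%, and 32, beside 5.31%. The 10 with the larger iPAAG change were all of set 2 and the 10 with the larger control change all of set 1. Without control horses 2 and 11, 4 genes of set 2 and 10 of set 1 had such a p, 14 of 150 beside 4.54% of all genes, and the median difference in set 2 was 0.53 in place of 0.99. The median difference over the 150 was -0.15, against 0.12 over all genes. For 5 of the 150 the 95% interval stayed inside 2-fold both ways, and for 68 inside 4-fold, so differences of 4-fold were not excluded for most of the genes. The sets were made from the same changes, which makes the division by set a description, also at week 10.

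At week 10 a larger share of these genes than of all genes had an unadjusted edgeR p under 0.05 between arms. All genes are no matched background here, since the 150 were chosen for large changes. Their SD of log2 level over the week 10 libraries had a median of 1.11, against 0.55 for the genes kept. Whether the 150 differed from genes of like spread was not tested. In edgeR, 0 of 150 passed an adjusted p of 0.05, beside 0% of 14654 genes, with a lowest adjusted p of 0.0871. Before adjustment, 84 of 150 had a p under 0.05, beside 10.6% of all genes. Of the 84, 27 were higher in iPAAG horses, beside 4.16% of all genes, and 57 were lower, beside 6.44%. By set, 53 of the 75 genes of set 1 were lower in iPAAG horses and 0 higher, and 27 of the 53 genes of set 2 were higher and 0 lower. Genes of a set move together across libraries, so these are not separate pieces of evidence. The median difference of iPAAG from control at week 10 was -1.02 in set 1 and 1.00 in set 2. DESeq2 called 14 of the 150, beside 0.696% of all genes, 9 higher and 5 lower in iPAAG horses, with 92 at an unadjusted p under 0.05, beside 13.7%. The counts with limma-voom were 0, beside 0%, and 64, beside 10.5%. Without control horses 2 and 11, edgeR called 0 of 150, with 61 at an unadjusted p under 0.05 beside 10.8% of all genes. These were 33 genes of set 1, all lower, 27 of set 2, all higher, and 1 of set 3, higher.

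At week 0, before the fragment was made, 10 of the 150 genes (6.67%) had an unadjusted p under 0.05 between arms, beside 5.84% of all 14615 genes. Of these, 3 were higher in iPAAG horses, beside 2.29% of all genes, and 7 lower, beside 3.54%. In edgeR 0 of 150 passed adjustment, beside 0% of all genes, with a lowest adjusted p of 0.794, and DESeq2 and limma-voom also called 0 of 150. At an unadjusted p under 0.05 they had 17, beside 7.12% of all genes, and 0, beside 5.28%. The median difference was -0.15 in set 1 and 0.27 in set 2. In set 4 it was -0.93, with a median SE of 0.86 and 1 of 10 genes at an unadjusted p under 0.05.

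**Figure D5:**
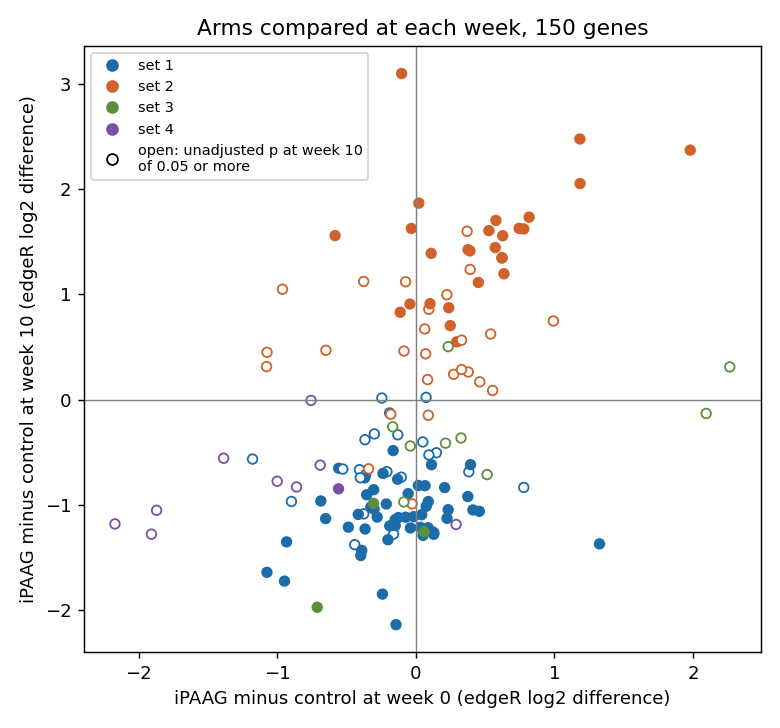
edgeR log2 difference of iPAAG from control horses at week 0 (x axis) and week 10 (y axis) for each of the 150 genes, coloured by set and filled where the unadjusted p at week 10 was under 0.05. Along the y axis set 1 lies mostly below 0 (73 of 75) and set 2 mostly above 0 (49 of 53), while along the x axis 26 of 75 and 38 of 53 lie above 0.

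Rank 30, a gene of set 2, showed the greatest separation of the arms among the 150, and was picked out after its values were seen. At week 0 it stood at 42.4 to 170 CPM (median 90.9) in control horses and at 50.0 to 166 CPM (median 98.9) in iPAAG horses. At week 10 it stood at 33.3 to 289 CPM (median 143) in control horses and at 350 to 3504 CPM (median 1283) in iPAAG horses, so the arms no longer overlapped. Its change was higher in each of the 8 iPAAG horses than in each of the 8 control horses, as in 0.018% of the genes kept, and 5 of 8 control horses had a higher level at week 10. The edgeR difference of changes was 2.96 (SE 0.54, adjusted p = 0.496) and the difference at week 10 was 3.10 (SE 0.49, adjusted p = 0.0871). It passed the threshold for the difference of changes with DESeq2 (adjusted p = 2.52e-06) and without the horse block (adjusted p = 0.0481). At week 10 it passed with DESeq2 (adjusted p = 5.28e-08), in the model of all 4 groups (adjusted p = 0.000394) and without iPAAG horse 7 (adjusted p = 0.041).

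Of the other genes, rank 149 was the second of the 150 in which the week 10 libraries of the arms did not overlap with iPAAG above, beside 0.0269% of the genes kept, and 0 had iPAAG wholly below, beside 0.018%. It lay at 5.16 to 16.996 CPM in iPAAG and 0.368 to 4.97 CPM in control horses at week 10. Its week 0 medians were 3.26 CPM in iPAAG and 1.46 CPM in control horses, so iPAAG was the higher arm by median before treatment too. Its edgeR difference of changes was 0.95 (SE 0.59, adjusted p = 0.982). Rank 4, higher at week 10 in 16 of 16 horses, had medians of 10.2 and 36.7 CPM in control horses and of 8.79 and 111 CPM in iPAAG horses at weeks 0 and 10. Its week 10 ranges of 25.6 to 82.4 and 38.99 to 392.1 CPM overlapped. The medians of rank 9 were 6.27 and 24.4 CPM in control horses and 12.8 and 107 CPM in iPAAG horses. In the other direction, rank 58 had medians of 36.8 and 144 CPM in control horses against 33.3 and 87.9 CPM with iPAAG. Its week 10 ranges of 114 to 202 and 54.99 to 139 CPM overlapped slightly. Rank 108 had the smallest p among negative differences of changes, at -2.38 (SE 0.60, edgeR adjusted p = 0.982). Its edgeR difference of iPAAG from control was 1.33 at week 0 (SE 0.52, adjusted p = 0.794) and -1.37 at week 10 (SE 0.54, adjusted p = 0.391). The difference of changes thus also reflects a higher iPAAG level at week 0. Its level in control horses went from a median of 3.08 to 18.4 CPM, while in iPAAG horses it was 5.81 and 9.85 CPM and was higher in 4 of 8 horses.

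The arms share no library, so a list ranked by the changes of 1 arm can be read in the other. The filter on level used all 32 libraries, so a gene could pass it partly through the arm in which the list is read. The reading is therefore a description and not an independent test. When the genes kept were ranked by the median change of control horses alone, 75 of the first 150 were among the genes described here. With the ranking by iPAAG horses alone, 84 of 150 were. The lists from the arms shared 25 genes, 24 of them among those described here, and 15 of the genes described here were in neither. For the list from control horses, the median over its genes was 1.88 there and 0.87 in iPAAG horses, where 144 of 150 had a median change above 0 and 58 of 1 or more. Among the genes kept, 47.0% and 3.58% did so in iPAAG horses. With the iPAAG arm fitted alone in edgeR, 61 of these 150 rose past an adjusted p of 0.05 (40.7%) and 0 fell, beside 8.39% of 14690 genes that rose. For the list from iPAAG horses, the median was 1.66 there and 1.02 in control horses, where 139 of 150 were above 0 and 76 at 1 or more, beside 49.3% and 6.21% of the genes kept. With the control arm fitted alone, 32 of these 150 rose (21.3%) and 0 fell, beside 2.84% of 14558 genes. Each list was smaller in its change in the arm that did not choose it. Choosing the largest changes in 1 arm leads to this in itself, so it is no result about the arms.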

How the data were processed

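Whole-number counts per gene were deposited by the authors for 32 libraries, and the whole numbers show no sign of scaling. The build EquCab3.0, limma 3.62.2 and STAR 2.7.10b are named per the submitters' processing notes, with no role stated. No source used here gives the counting tool or strand setting, so overlapping or near-identical genes are uncertain. All 32 columns were matched to a horse and week by name, and 0 were left unmapped.

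Tests used edgeR 4.0.16 (R 4.3.3) with its quasi-likelihood test, TMM factors, its low-count filter and Benjamini-Hochberg adjustment over all genes tested. All 150 genes passed the filter in each fit. Changes were fitted over 32 libraries, blocking on horse, with a week 10 term per arm, since the codes name the same animal at both weeks. Across the genes kept, deviations of the 2 libraries of a horse correlated at a median of 0.12 (-0.33 to 0.49), over 0.1 in 8 of 16 horses. The arms were compared within each week over 16 libraries. The SE is the absolute log2 value divided by the root of F. Scripts were tested on simulated data. Alternatives were DESeq2 1.42.0, limma-voom (limma 3.58.1), no filter, no block and left-out horses. Depth limits low genes most, at 5428928 to 56476566 counts.

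The 150 genes and the tests were chosen with earlier results of these data known. The 2 printed identifiers follow a rule for tables without symbols: the largest median change, and of the rest the largest lowest change. Gene lists that need symbols were not used. Horses are separate animals within an arm.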

Additional observations from a re-analysis of the deposited data

How the results depend on the processing

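Of the 150 genes, the rule kept 75 with control horses alone and 84 with iPAAG horses alone, and 104 to 136 with TMM scaling, a pseudocount of 2, mean levels of at least 1 or 3, the mean in place of the median, or without control horses 2 and 11. It kept 126 to 133 when each horse was left out. For the difference of changes, DESeq2 and the fit with no replicate block each called 1 of the 150 in place of 0, and leaving out each horse gave 0. Genes at an unadjusted p under 0.05 numbered 44 with DESeq2 and 32 with limma-voom in place of 20, with 9 (without iPAAG horse 3) to 41 (without iPAAG horse 14) over left-out horses, and also 11 without control horse 15 and 13 without iPAAG horse 6 or 17. At week 10, 14 passed adjustment with DESeq2 and 1 in the model of all 4 groups with no replicate block, 0 to 1 over left-out horses (1 without iPAAG horse 7), and 64 to 93 were at an unadjusted p under 0.05 in place of 84. At week 0 that number was 17 with DESeq2, 0 with limma-voom and 5 in the model of all 4 groups in place of 10. It was 3 (without control horse 9) to 29 (without iPAAG horse 7) over left-out horses, also 16 without control horse 13, 17 without iPAAG horse 3 and 5 without iPAAG horse 12, and 0 passed adjustment. The count of the 150 past adjustment over time was 67 in the iPAAG arm and 114 with DESeq2. Over left-out horses it was 34 to 89, with 34 without iPAAG horse 5, 41 without 14, 42 without 7, 43 without 3 and 44 without 17. It stayed within 1.5 times of 91 in the control arm (80 to 97 over left-out horses) and of 124 in the mean of both arms (118 to 130). Dropping the block moved no further count past 1.5 times. For ENSECAG00000007941 the difference of changes, -0.05, lay between -0.21 and 0.12 over left-out horses, at 0.03 without control horse 10, 0.0084 without 11, 0.12 without 15, 0.0071 without iPAAG horse 12, 0.08 without 17 and 0.0100 without 3. For ENSECAG00000014484 the difference of changes, 2.26, was 1.09 without control horses 2 and 11. Its arms at week 0 differed by -0.58, by 1.14 without control horses 2 and 11 and by 0.13 without control horse 2, and ranged from -0.89 to 0.13 over left-out single horses, none past the threshold. The cause of these moves was not tested, beyond fewer samples where horses were left out. The counts over single left-out horses stand without the share of all genes in the same fit. Whether the 150 moved more than other genes was therefore not tested. The grouping into sets without control horses 2 and 11, the counts by set without them and the arms fitted alone were chosen after seeing the data.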
